A study of Homo sapiens with 3 samples.

Results

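The genes described here are 8 receptors of the tumour necrosis factor (TNF) receptor superfamily, TNFRSF10A, TNFRSF10B, TNFRSF10C, TNFRSF10D, FAS, TNFRSF1A, TNFRSF12A and TNFRSF21, together with the initiator caspase gene CASP8 and its regulator CFLAR. They were chosen by name, and every probe that the platform annotation gives to them was taken, which makes 10 of 20039 named genes and 15 of 47231 probes. Total RNA was taken from MDA-MB-231, an established line of basal, mesenchymal-like breast carcinoma, which the series calls deficient in argininosuccinate synthase (ASS1), and was hybridised to 1-colour bead arrays. ADI-PEG20 is a pegylated arginine deiminase, which degrades extracellular arginine. The 3 samples had 1 array each: 48 h of ADI-PEG20 at 0.3 µg/ml (called ADI-PEG20), 24 h of ADI-PEG20 and then 24 h of L-arginine at 420 µg/ml (called arginine return), and 48 h without treatment. In the label of the arginine return the enzyme's dose reads 0.3 and its unit is incomplete. All 3 came from the same line in medium with fetal bovine serum. Since each condition had a single array, the differences below come with no test and no spread between samples, and each compares these arrays only.

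A death receptor carries a cytoplasmic death domain. When its ligand clusters it, the adaptor FADD is recruited through that domain and brings CASP8 molecules together, which then activate each other by cleavage. CFLAR encodes c-FLIP, a relative of CASP8 without protease activity that joins the same complex and limits or shapes CASP8 activation. TNFRSF10A and TNFRSF10B (DR4 and DR5) signal death on binding TRAIL, the product of TNFSF10. TNFRSF10C and TNFRSF10D bind TRAIL too, but the one lacks a death domain and the other has a truncated one, so both are known as decoy receptors. In the RefSeq annotation the 4 TRAIL receptor genes lie next to each other, and so do CFLAR, CASP10 and CASP8.

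Values are deposited probe intensities in arbitrary units. Differences are on a log2 scale after background correction, the first-named sample minus the second, and a probe was called above background where its intensity exceeded 163. This limit was set from the intensities, since deposited detection p-values were not used here. The intensities on the 3 arrays share 1 distribution, with medians of 149, which hides any difference in the amount of RNA per cell. Of the 9 markers of the basal, mesenchymal-like state, 7 were above background under ADI-PEG20, 6 after the arginine return and 7 in untreated cells, with summed corrected intensities, in the same order, of 43021, 49088 and 50507. VIM and CAV1 were among them, while TWIST1 and FN1 were below background on all arrays. In that order 5, 4 and 4 of 8 luminal markers were above background, with sums of 3159, 3075 and 3071 and with ESR1 and PGR at background. The near-equal luminal sums hold opposite moves under ADI-PEG20. CDH1 was at 1.03 (374 against 245 in untreated cells), EPCAM at 0.62, KRT18 at -0.02 and KRT8 at -0.45. GATA3 (174 against 150) passed the limit only on the ADI-PEG20 array, where it was high. With GATA3 counted, the median was 0.62 over 5 genes. Of these 3 were 1.5-fold or more higher, beside 7.96% of all genes. Of 7 leukocyte markers 2 were above background, CD68 and CD14, with sums of 3132, 3193 and 3279 and with PTPRC at background. Endothelial markers summed to 44.5, 40.7 and 48.7, and fibroblast markers to 272, 210 and 190, with LUM the 1 member above background. The part of these lists in the results below was not tested.

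Under ADI-PEG20, TNFRSF10A was the 1 gene of the 8 that could be compared whose transcript differed by 2-fold or more from untreated cells, and it was higher, as were 1.75% of all genes compared. TNFRSF10D was higher by less and TNFRSF21 was lower. TNFRSF10B and CASP8 were higher on their brightest probe but not on their other probes above background on either array. For CASP8 that other probe passed the limit only in untreated cells. TNFRSF1A, TNFRSF12A and CFLAR were close to their untreated level. After the arginine return TNFRSF10A was near its untreated level, while TNFRSF10D was below it. FAS was at background on every array.

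**Figure D1:**
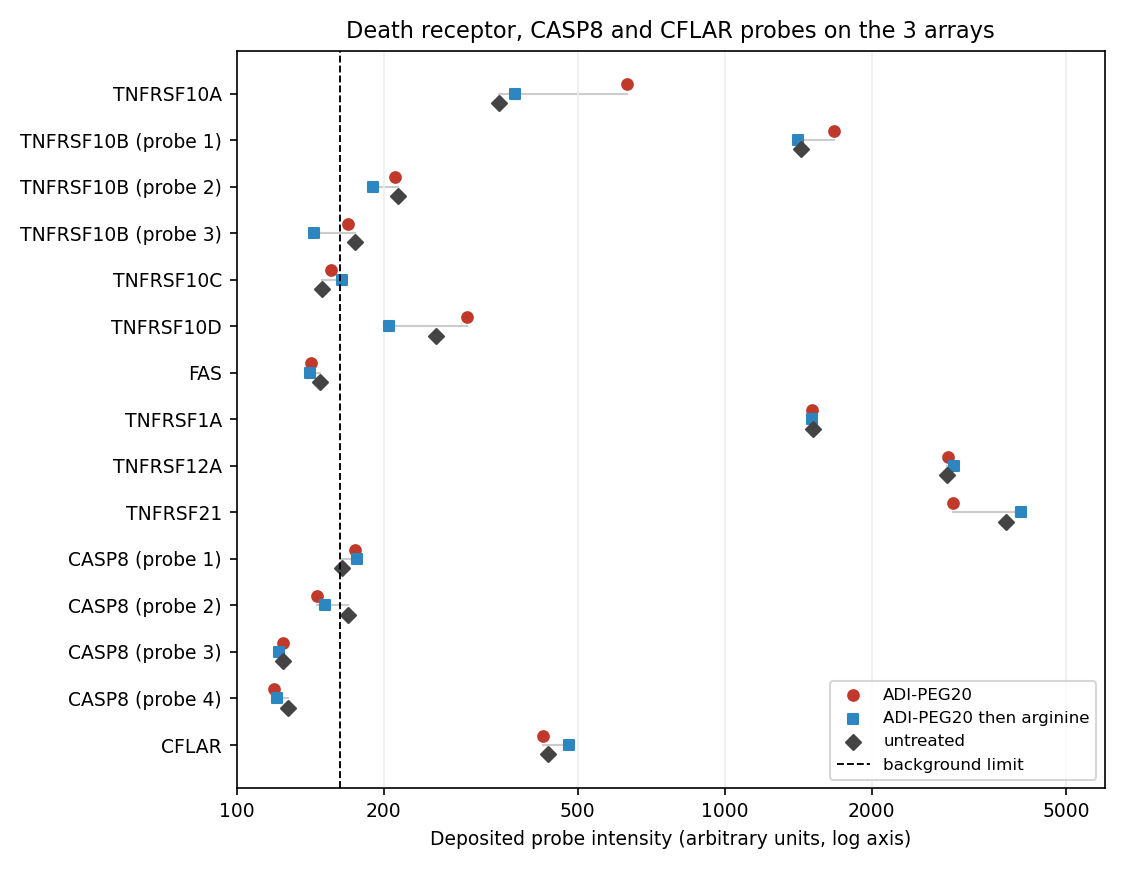
Deposited intensity of each of the 15 probes on a log axis, with 1 point for each array and the dashed line at the background limit of 163. The 2 arrays without continued ADI-PEG20 lie close together for TNFRSF10A, at 371 after the arginine return and 345 in untreated cells, with ADI-PEG20 at 629.5, while the 3 points of TNFRSF1A coincide.

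Of the 10 genes, 9 passed the background limit on 1 array or more, and 8 did so on each of the 3. Of the probes, 9 were above background on all 3 arrays, 3 on some and 3 on none. CASP8 had 4 probes and TNFRSF10B had 3, and the other 8 genes had 1 each, so for those no second probe could be set beside the first. Where a gene had several, its brightest probe stands for it.

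TNFRSF10A, a TRAIL receptor with a death domain, had an intensity of 629.5 under ADI-PEG20 and 371 after the arginine return, against 345 in untreated cells. The ADI-PEG20 array was the high one and the other 2 were close to each other. The difference of ADI-PEG20 from untreated was 1.18, or 2.27-fold, and 0.951% of the 11141 genes that entered this comparison had a higher one. For scale, the error between 2 probes of a gene was 0.19 (SD, over 980 genes whose dimmer probe had an intensity of 300 to 1000), an error that covers probes and not cultures. The arginine return differed from ADI-PEG20 by -1.02 and from untreated by 0.16. Both the higher value under ADI-PEG20 and the lower value after the return rest on the same single ADI-PEG20 array. Without background correction the difference from untreated was 0.87, short of 2-fold, and that of the arginine return from ADI-PEG20 was -0.76. With an offset of 50 the differences were 1.07 and -0.93, so only the first stayed past 2-fold.

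TNFRSF10B, the other TRAIL receptor with a death domain, had an intensity of 1673 under ADI-PEG20 and 1409.5 after the arginine return, against 1434 in untreated cells. Its differences were 0.24 for ADI-PEG20 minus untreated, -0.27 for the arginine return minus ADI-PEG20 and -0.03 for the arginine return minus untreated. The same array was high as for TNFRSF10A, but by 1.18-fold. The 2 dimmer probes of TNFRSF10B gave another picture. One had 211 under ADI-PEG20, 190.0 after the return and 214 in untreated cells, and the other had 169, 144 and 175. On both of these the arginine return was the low array and ADI-PEG20 lay just under untreated, with differences of -0.05 and -0.16. The mean over its probes was 0.01 for ADI-PEG20 minus untreated, where each was above background on both arrays. For the arginine return minus untreated the mean was -0.495. That mean includes the dimmest probe, at -1.03, whose value of 144 after the return was below the background limit. This probe entered only through the untreated array, where it was high.

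TNFRSF10D, the decoy with a truncated death domain, had an intensity of 296 under ADI-PEG20 and 205 after the arginine return, against 256 in untreated cells. Here the arginine return was the low array, below both others. It differed from ADI-PEG20 by -1.06, or 0.481-fold, and from untreated cells by -0.68, or 0.624-fold. In the last comparison 1.94% of the 11087 genes lay lower. ADI-PEG20 minus untreated was 0.38, a size that 36.6% of genes reached or passed in either direction. At this brightness the error between probes was 0.26 (SD, 1126 genes, dimmer probe under 300, for the arginine return minus ADI-PEG20). With the larger offset of 50 the difference between the return and ADI-PEG20 was -0.82, and without background correction it was -0.53. The same 2 settings gave -0.51 and -0.32 for the arginine return minus untreated.

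TNFRSF10C, the decoy that lacks a death domain, had an intensity of 156 under ADI-PEG20 and 165 after the arginine return, against 149 in untreated cells. Only the value after the return passed the background limit, and by little, so the gene entered comparisons only through the array where it was highest. The bound on its fold against either other array was at least 1.04-fold, or 0.05 on the log2 scale, within the error between dim probes of 0.23 (SD, 1126 genes, arginine return minus untreated). No direction is given for it. The comparison of ADI-PEG20 with untreated cells could not be made for it.

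FAS, the receptor of FAS ligand, had an intensity of 142 under ADI-PEG20 and 141 after the arginine return, against 148 in untreated cells. All 3 values lie below the background limit, so its 1 probe gives no difference.

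TNFRSF1A, the main TNF receptor with a death domain, which recruits TRADD, had an intensity of 1507 under ADI-PEG20 and 1506 after the arginine return, against 1516 in untreated cells. The 3 values lay within 0.01 of each other on the log2 scale. TNFRSF12A (Fn14), a receptor of TWEAK without a death domain that signals through TRAF adaptors, had 2859.5 and 2943, against 2854 in untreated cells. Its differences were 0.003 for ADI-PEG20 minus untreated and 0.04 for the arginine return minus ADI-PEG20. The error between probes as bright as these was 0.16 (SD, 439 genes, ADI-PEG20 minus untreated), above any difference of either gene.

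TNFRSF21 (DR6), a death-domain receptor, had an intensity of 2935 under ADI-PEG20 and 4043 after the arginine return, against 3759.8 in untreated cells. It was the lowest of the 8 genes that could be compared under ADI-PEG20, at -0.37 or 0.773-fold, where the ADI-PEG20 array was the low one. The arginine return differed from ADI-PEG20 by 0.48, the highest value among the 9 genes in that comparison, and from untreated by 0.11. Across all genes a difference as large as that under ADI-PEG20, in either direction, was met by 37.1%. So the size was common among genes, though it was above the error between probes of that brightness.

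RefSeq promoter windows (GRCh38.p14), matched by symbol, were used for 5 of the 10 genes, in 12 windows: CASP8, CFLAR, FAS, TNFRSF1A and TNFRSF21. No window of TNFRSF10A, TNFRSF10B, TNFRSF10C, TNFRSF10D or TNFRSF12A was used, which does not mean that none exists. The promoters of these genes were not searched, so the matches below say nothing of them. The 250 bases before the start of TNFRSF21, the gene among the 5 with the largest difference on a bright probe, are shown beside those of TNFRSF1A, whose 3 values coincided. Capitals mark matches to any of 5 motifs, searched on both strands: CACGTG (the E-box of MYC and MAX), TGATGNAA (the C/EBP-ATF element), TGANTCA (AP-1), GGGCGG (the GC box of Sp1) and GGGNNTTCC (a simplified NF-kB site). No matches overlap in these 2 windows.
TNFRSF21, chr6:47309906-47310155, minus strand: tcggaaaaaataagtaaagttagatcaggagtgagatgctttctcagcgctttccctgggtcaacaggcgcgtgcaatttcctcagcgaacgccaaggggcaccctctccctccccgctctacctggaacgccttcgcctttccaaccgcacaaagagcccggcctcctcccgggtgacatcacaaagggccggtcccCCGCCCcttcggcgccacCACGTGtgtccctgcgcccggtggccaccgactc
TNFRSF1A, chr12:6342077-6342326, minus strand: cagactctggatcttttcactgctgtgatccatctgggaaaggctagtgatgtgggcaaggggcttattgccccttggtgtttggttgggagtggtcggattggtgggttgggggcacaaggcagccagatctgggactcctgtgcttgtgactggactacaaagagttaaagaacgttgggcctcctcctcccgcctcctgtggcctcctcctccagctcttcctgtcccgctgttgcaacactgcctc
The TNFRSF21 window holds an E-box 34 to 29 bases before the start and a GC box, read on the other strand, 52 to 47 bases before it. The TNFRSF1A window holds no match to the 5 motifs. The search covered 35116 windows of this length. Of these, 6.34% hold the E-box, 42.6% the GC box, 6.57% the AP-1 letters, 5.78% the NF-kB letters and 3.14% the C/EBP-ATF element. No window of the 5 genes holds the C/EBP-ATF element, while 3 of the 12 hold the AP-1 letters and 3 the NF-kB letters, in each case 1 window each of CASP8, CFLAR and FAS. The GC box is in 7 of the 12, of CASP8, CFLAR, FAS and TNFRSF21. These matches describe letters and not bound sites.

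CASP8, the protease that death receptors activate, was near the background limit. Its brightest probe had an intensity of 175 under ADI-PEG20 and 176 after the arginine return, against 164 in untreated cells, with differences of 0.32 and 0.36 from untreated. The second probe ran the other way, with 146 under ADI-PEG20 and 151 after the return, against 169 in untreated cells. Its 2 treated values were below background. The other 2 probes stayed at background throughout, between 119.6 and 128. The mean of the first and second probes was -0.24 for ADI-PEG20 minus untreated. It rests on the second probe, which entered only through the untreated array, where it was high. No direction can be given for CASP8.

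CFLAR, the c-FLIP gene, had an intensity of 425 under ADI-PEG20 and 479 after the arginine return, against 433 in untreated cells. Its differences were -0.04 for ADI-PEG20 minus untreated, 0.24 for the arginine return minus ADI-PEG20 and 0.19 for the arginine return minus untreated. A single probe reports the gene, so the isoforms of c-FLIP could not be told apart.

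**Figure D2:**
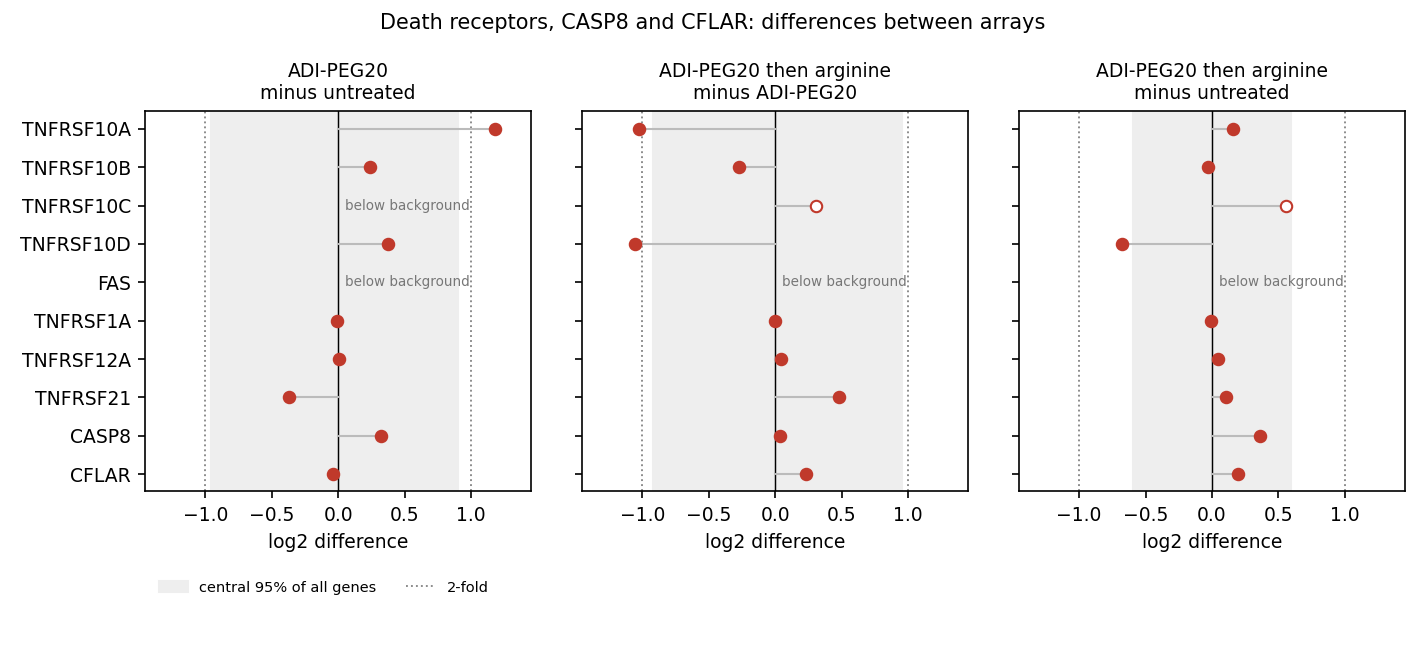
Log2 difference of each gene in the 3 comparisons, with the shaded band holding the central 95% of all genes and dotted lines at 2-fold. Open points were above background on 1 of the 2 arrays only. TNFRSF10A lies outside the band in the first panel at 1.18, TNFRSF10A and TNFRSF10D in the second at -1.02 and -1.06, and TNFRSF10D in the third at -0.68.

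As a group, 1 of the 8 genes compared was 2-fold or more higher under ADI-PEG20 than in untreated cells, where 1.75% of all genes were, and 0 were 2-fold or more lower, where 2.12% of all genes were. The median of the 8 was 0.12, beside -0.003 over all genes. Of the 8, 5 were higher, beside 49.7% of all genes, and 3 lower, CASP8 counted by its brightest probe. With the mean over probes above background on either array the median was -0.003, with 4 higher and 4 lower. There CASP8 counts as lower through its second probe, which passed the limit only on the untreated array. With a background limit of 5 SDs, which CASP8 does not pass, the median was 0.003 over 7 genes. Between the arginine return and ADI-PEG20, 2 of 9 genes were 2-fold or more lower, TNFRSF10A and TNFRSF10D, beside 1.86% of 11137 genes. That count was 0 without background correction, beside 0.52% of all genes, and 0 with an offset of 50, beside 0.84%. The number higher was 0, beside 2.06%, and the median was 0.04, with 5 of 9 above 0 beside 49.9% of all genes. TNFRSF10C is among these 5, and with both arrays required above background 4 of 8 were higher and 4 lower, with a median of 0.02. At 1.5-fold the count was again 2 lower and 0 higher, beside 8.93% and 9.91% of genes. Between the arginine return and untreated cells 0 of 9 passed 2-fold, beside 0.37% of genes higher and 0.325% lower, and the median was 0.11, or 0.08 over 8 genes without TNFRSF10C. At 1.5-fold the last comparison held 1 gene, TNFRSF10D, beside 2.69% of genes lower, and 0 higher, beside 2.67%. The first and second comparisons share the ADI-PEG20 array, and the untreated array serves in both comparisons with untreated cells. With so few genes, a count of 1 or 2 says which genes passed and nothing of the group.

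The other genes of the pathway were described from 10 lists with 89 genes, of which 84 were named on the array and 60 entered the comparison of ADI-PEG20 with untreated cells. There 22 were higher and 38 lower, with a median of -0.13, while 49.7% of all genes were higher. None reached 2-fold, 2 were 1.5-fold or more higher, beside 7.96% of all genes, and 7 were 1.5-fold or more lower, beside 9.29%. Of the 7, TRAF1, TRAF3 and RELT passed the background limit on the untreated array but not under ADI-PEG20. So did XIAP and TNFRSF9, which are among the 38. The direction of these genes was thus bound to the array through which they entered. Of the 2, CYCS passed it under ADI-PEG20 but not on the untreated array.

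Of 8 death ligands 5 were above background. Under ADI-PEG20 1 of them was higher, beside 49.7% of all genes, and 4 lower (median -0.25), none by 1.5-fold. TNFSF10, which encodes TRAIL, the ligand of TNFRSF10A and TNFRSF10B, had an intensity of 893 under ADI-PEG20 and 1356 after the arginine return, against 1078 in untreated cells. It was thus lowest on the array where TNFRSF10A was highest, with differences of -0.31 for ADI-PEG20 minus untreated and 0.68 for the arginine return minus ADI-PEG20. TNFSF12, which encodes TWEAK, differed by -0.26 under ADI-PEG20, TNFSF15 by -0.25, TNFSF14 (LIGHT) by 0.03 and LTA (lymphotoxin alpha) by -0.10. FASLG and TNF were at background on all arrays.

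Adaptors and kinases of the receptor complexes had a median of -0.16 over 11 genes, 3 higher, beside 49.7% of all genes, and 8 lower. Of the lower genes 3 were so by 1.5-fold or more, beside 9.29% of all genes. TRAF1 and TRAF3, adaptors of TNF receptors, were below background under ADI-PEG20 (161 and 160, against 194 and 187 in untreated cells). They entered only through the untreated array, where they were high, and were at least 1.74-fold and 1.57-fold lower under ADI-PEG20 on corrected values. Of the 3, only DAXX, first described as a FAS-binding protein, was above background on both arrays. It had 283 under ADI-PEG20 against 397 in untreated cells, a difference of -0.77. FADD, the adaptor that links death receptors to CASP8, had 1607 under ADI-PEG20 and 1933 after the return, against 2011 in untreated cells, which gives -0.35 for the first comparison. Among the caspases other than CASP8, CASP6 differed by -0.66, CASP9, the initiator of the mitochondrial route, by -0.23 and the inflammatory caspase gene CASP4 by 0.34. CASP10, a close relative of CASP8 and its neighbour in the genome, was at background.

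Inhibitors of apoptosis and their antagonists stayed close to their untreated level, with a median of 0.04 over 6 genes and a range of -0.10 to 0.23. The protease gene HTRA2, at 0.23, BIRC6, at 0.14, and XIAP, at -0.10, had the largest differences, and XIAP was near the background limit. Among 12 regulators and ubiquitin enzymes of the complex, RBCK1 (HOIL-1), a subunit of the linear ubiquitin ligase, was at 0.68, FAIM, an inhibitor of FAS-induced death, at 0.48, and PEA15, a death effector domain protein that binds FADD and CASP8, at 0.30. The median of the 12 was 0.10, with 8 higher, beside 49.7% of all genes, and 4 lower. In the mitochondrial route APAF1, the scaffold of the apoptosome, was at -0.56 and BAX, a pore-forming BCL2 relative, at -0.47. CYCS, cytochrome c, was near the background limit, with 177 under ADI-PEG20 against 157 in untreated cells. It entered only through the ADI-PEG20 array, where it was high, and was at least 1.32-fold higher there on corrected values. The necroptosis effector gene MLKL was at -0.41, and RIPK3 and ZBP1 were at background.

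Of the 18 other TNF receptors 8 entered, with a median of -0.35. Of these 1 was higher, beside 49.7% of all genes, and 7 lower. TNFRSF11B, which encodes osteoprotegerin, a soluble decoy that binds TRAIL as well as RANKL, had 178 under ADI-PEG20 and 223 after the return, against 235 in untreated cells. Its difference under ADI-PEG20, -0.999, fell just short of 2-fold and rests on an ADI-PEG20 value near the background limit. TNFRSF19 was at -0.70. RELT, below background under ADI-PEG20 (156 against 178 in untreated cells), was at least 1.35-fold lower on corrected values. TNFRSF9 was also below background under ADI-PEG20 (157 against 165 in untreated cells). Both entered only through the untreated array, where they were high, and both count among the 7. TNFRSF25, EDAR and NGFR, 3 further receptors with a death domain that formed a list of their own, were at background on all arrays. In receptor processing and trafficking CLTC, the clathrin heavy chain, was at -0.39, AP2M1, a clathrin adaptor subunit, at -0.22 and ERAP1, an aminopeptidase linked to shedding of TNFRSF1A, at -0.18.

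**Figure D3:**
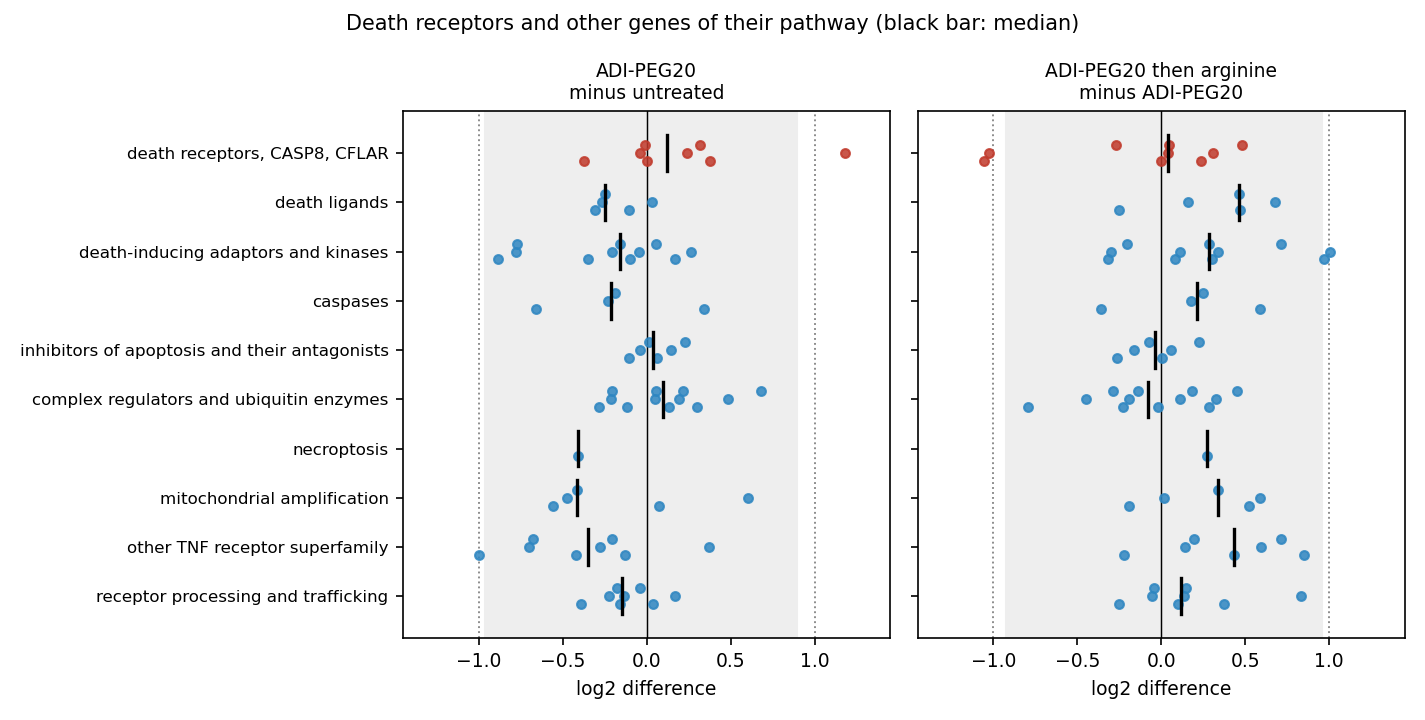
Log2 differences of the 10 genes (red) and of the pathway lists with a gene above background (blue), 1 point for each gene that entered the comparison, with black bars at medians, the band over the central 95% of all genes and dotted lines at 2-fold. In the left panel TNFRSF10A at 1.18 is the 1 point beyond the upper 2-fold line, and the ligand, adaptor, caspase and other receptor lists have medians of -0.25, -0.16, -0.21 and -0.35.

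Between the arginine return and ADI-PEG20, 39 of 59 genes of these lists were higher, beside 49.9% of all genes, and 20 lower, with a median of 0.15. At 1.5-fold 10 were higher, beside 9.91% of all genes, and 1 lower, beside 8.93%. TRAF1, TRAF3 and RELT are among the 10, each below background under ADI-PEG20. XIAP, among the 39, was below background there too, and LTA, among the 20, was below background after the return. TRAF1 was the 1 measured 2-fold higher, beside 2.06%, and at least 1.89-fold with its value below background held at its bound. Between the arginine return and untreated cells the median was 0.02, with 32 of 60 higher, beside 48.7% of all genes, and 28 lower. LTA and TNFRSF9, counted lower, and CYCS, counted higher, were above background on 1 of these 2 arrays only.

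Factors linked to TNFRSF10B or CFLAR transcription were listed too, in a list chosen with earlier results of these data known. Of 9 genes 8 were higher under ADI-PEG20, beside 49.7% of all genes, and 4 of them by 2-fold or more, beside 1.75%. Since the list was chosen in this way, these counts describe its genes and do not measure enrichment. DDIT3 (CHOP), which is known to induce TNFRSF10B, had 854 under ADI-PEG20 and 599 after the arginine return, against 747 in untreated cells, which gives 0.23 for ADI-PEG20 minus untreated. The 4 past 2-fold were TRIB3, ATF3, MYC and ATF4. TRIB3, a pseudokinase induced by CHOP, was at 1.84 and ATF3, a stress-induced factor, at 1.56. ATF4 was at 1.02, with 14772 under ADI-PEG20 against 7338 in untreated cells. MYC, which can repress CFLAR, was at 1.05, while CFLAR was at -0.04.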

How the data were processed

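The values used are the intensity of 47231 probes, on a linear scale, as the authors deposited them. The submitters' processing notes name GenomeStudio with no version. How the arrays were normalized or corrected for background is not stated in those notes, but the 3 arrays share 1 distribution, as after quantile normalization. Another deposited table was left out, because none of its 6 columns of values carries a name that fits a single sample. It also holds detection p-values, so whether CASP8, TNFRSF10C and FAS were detected was judged here by the background limit alone.

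Probes were named through the platform annotation and RefSeq gene identifiers. The background was removed by normexp, a model of exponential signal plus normal background (mode 136.9, SD 8.74, exponential mean 425, all read from the intensities). After adding 16, log2 was taken. Above background meant more than 3 SDs over the mode. The brightest probe stood for its gene, which was compared where that probe passed the limit on either array. The mean over probes above background likewise takes each probe that passed on either array, with its value on the other array unbounded. Where it passed on 1 only, the fold is a bound, taken against the dimmest value that passed on the other array. This bound depends on the background correction and on the offset of 16. No test was possible with 1 array a group, precision is limited by the number of arrays, and calls are by a 2-fold threshold. The error between probes compares the log2 differences of a gene's 2 brightest probes (SD over genes, per probe). The steps were tested on simulated data.

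The named genes are all of the 10, with each probe. From each pathway list the 3 members with the largest difference under ADI-PEG20 were named, and all ligands above background. Other list members, the relation of TNFSF10 to TNFRSF10A, and the promoter windows and motifs shown were chosen after their values were seen. The genes and lists were chosen with earlier results of these data known. Python 3.11.15, numpy 2.4.6, pandas 2.3.3 and scipy 1.17.1 were used.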

Additional observations from a re-analysis of the deposited data

How the results depend on the processing

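Each of the 26 differences of a single gene was recomputed under up to 7 alternatives, which gave 175 values. Of these 158 moved by less than the error between probes, 17 by more, and 0 of the differences past 2-fold changed sign. Many of the values could not move. A gene with 1 probe keeps its value under the mean over probes. A gene well above background keeps it under the stricter limits and the bound. The count of 158 is therefore no measure of robustness. Without background correction the count past 2-fold was 0 for ADI-PEG20 minus untreated and 0 for the arginine return minus ADI-PEG20, in place of 1 and 2. With an offset of 50 it was also 0 for the arginine return minus ADI-PEG20. At 1.5-fold the count for the arginine return minus untreated was 1 in place of 0. The medians moved by less than the error between probes under all 7. That error is larger than each of the medians and is not a spread of medians, so it cannot show them to be stable. For ADI-PEG20 minus untreated the median went from 0.12 to -0.003 with the mean over probes above background. Over all genes, without background correction, 52 were 2-fold or more higher and 50 lower under ADI-PEG20, in place of 195 and 236. For the arginine return minus ADI-PEG20, 48 were higher and 58 lower without correction, in place of 229 and 207. With an offset of 50 that comparison held 99 higher and 94 lower. Dim probes limit CASP8, TNFRSF10C and FAS, and the compression near background limits TNFRSF10D. No paired analysis was possible because each condition had 1 array.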
